A study of Homo sapiens with 3 samples.

Results

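The MAGE genes and other cancer-testis families were followed in RCC4 cells, a line from a human clear cell renal carcinoma without working VHL protein, into which a Cas9 vector had been introduced. They were taken by symbol: MAGE families A to H with MAGEL2 and NDN, the GAGE, PAGE, XAGE, SSX and CTAG families, and PRAME. The rule found 73 of the 60605 genes in the deposited table, 70 of them annotated as protein-coding and 3 as pseudogenes. All libraries came from 1 group, cells given IFN-gamma at 1000 U/mL and TNF at 25 ng/mL for 24 h, with 3 biological replicates of 3 flasks each. The values are therefore levels in cytokine-treated cells and carry no response to the treatment, since untreated cells were not analysed here. A level is given in RPKM, reads per kilobase of annotated exon scaled to library size, as mean ± SD over 3 libraries. A gene counted as detected at 1 CPM (library-scaled reads without the length term) or more in every library.

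MAGE proteins share a MAGE homology domain, through which many of them bind RING ubiquitin ligases and direct them to substrates. Type I MAGE genes (MAGEA, MAGEB and MAGEC) lie on the X chromosome and are normally active in testis, some also in placenta, and are reactivated in many tumours, where their peptides can be presented to T cells on HLA class I. Type II genes (here MAGED, MAGEE, MAGEF, MAGEH, MAGEL2 and NDN) are active in many normal tissues. GAGE, PAGE, XAGE, SSX and CTAG genes are further X-linked families with a testis-restricted pattern, and PRAME is an autosomal tumour antigen. Silencing of the testis-restricted genes in somatic cells is tied to methylation of CpG dinucleotides in their promoters.

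The families split by type. Of 10 type II MAGE genes 6 were detected, namely MAGED2, MAGEF1, NDN, MAGED1, MAGEH1 and MAGEE1. None of 29 type I MAGE genes, which include the 3 pseudogenes, was detected, and the highest count of any of them in a library was 2 reads. Of the 34 other cancer-testis genes PRAME alone was detected. The 7 detected genes were 9.59% of the members, against 51.4% of all 19861 protein-coding genes and 40.1% of the 841 protein-coding genes on X. Reads were absent from every library for 61 members, or 83.6%, against 28.7% of all protein-coding genes and 41.3% of those on X. Only 31 of these 61 members were well resolved by sequence and position, as defined below, and 18 of the 31 were type I MAGE genes. Another 20 share most of their transcript sequence with other genes. The shares of members detected and without reads are therefore given as listed, and the part of shared sequence in them was not tested. The median level was 0 RPKM over all members, against 0.482 RPKM over all protein-coding genes. These shares describe 1 cell line and were not tested.

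Promoter windows of 5 members are shown as examples of both outcomes: MAGED2, NDN and PRAME, which were detected, and MAGEA3 and SSX1, which had no reads. Each runs from 250 bases before a RefSeq transcription start to 50 bases after it (GRCh38.p14), is written 5′ to 3′ on the gene's strand, and has every CpG dinucleotide in capitals. MAGED2 is at chrX:54808096-54808395 (plus strand), NDN at chr15:23687256-23687555 (minus), PRAME at chr22:22559216-22559515 (minus), MAGEA3 at chrX:152698544-152698843 (plus) and SSX1 at chrX:48255142-48255441 (plus).
MAGED2: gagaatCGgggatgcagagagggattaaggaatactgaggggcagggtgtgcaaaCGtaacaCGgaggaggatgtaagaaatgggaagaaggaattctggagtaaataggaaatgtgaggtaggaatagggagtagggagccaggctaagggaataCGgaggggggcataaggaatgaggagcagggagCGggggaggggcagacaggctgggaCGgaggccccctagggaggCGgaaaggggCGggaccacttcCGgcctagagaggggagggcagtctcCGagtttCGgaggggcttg
NDN: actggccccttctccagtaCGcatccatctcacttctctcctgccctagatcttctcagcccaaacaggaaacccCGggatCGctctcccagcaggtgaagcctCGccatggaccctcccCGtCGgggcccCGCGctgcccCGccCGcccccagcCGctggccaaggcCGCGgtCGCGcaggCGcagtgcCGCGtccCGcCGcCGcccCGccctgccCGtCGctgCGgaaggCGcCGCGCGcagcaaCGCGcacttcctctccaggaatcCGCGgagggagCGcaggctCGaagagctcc
PRAME: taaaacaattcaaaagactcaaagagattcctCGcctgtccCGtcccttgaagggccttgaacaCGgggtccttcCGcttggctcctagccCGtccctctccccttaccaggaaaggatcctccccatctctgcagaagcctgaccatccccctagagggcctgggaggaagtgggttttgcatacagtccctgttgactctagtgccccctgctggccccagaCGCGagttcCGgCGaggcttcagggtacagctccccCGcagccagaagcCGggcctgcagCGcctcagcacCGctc
MAGEA3: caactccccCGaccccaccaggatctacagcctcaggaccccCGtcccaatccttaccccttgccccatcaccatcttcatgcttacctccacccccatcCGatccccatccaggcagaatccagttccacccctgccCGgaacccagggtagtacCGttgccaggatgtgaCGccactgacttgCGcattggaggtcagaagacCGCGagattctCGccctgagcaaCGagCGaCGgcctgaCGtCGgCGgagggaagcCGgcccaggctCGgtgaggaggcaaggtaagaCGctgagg
SSX1: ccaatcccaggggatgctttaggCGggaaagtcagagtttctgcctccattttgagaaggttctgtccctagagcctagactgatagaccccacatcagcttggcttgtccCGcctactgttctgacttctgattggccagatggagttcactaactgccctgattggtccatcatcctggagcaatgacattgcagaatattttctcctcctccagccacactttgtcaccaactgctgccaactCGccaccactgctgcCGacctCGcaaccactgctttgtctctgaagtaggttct

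The CpG counts of detected members and of members without reads overlapped. Where a gene had several RefSeq starts the window with the most CpG was used, and 61 of the 73 members had a window. MAGEH1, though detected, had none. NDN held 35 CpG, MAGEF1 21, MAGED1 20, PRAME 13, MAGEE1 12 and MAGED2 11. The median of these 6 was 16.5. The 51 members without reads held 2 to 21, with a median of 13, and NDN alone lay above that range. MAGED4 and MAGED4B, which had some reads without being detected, held 26 and 25. By type, the median was 20 over 9 type II and 13 over 23 type I MAGE genes. MAGEA3, with 19 CpG and no reads, held more than MAGED2, the highest of the expressed members. The median over 15782 other protein-coding genes was 24. DNA methylation was not analysed here.

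**Figure D1:**
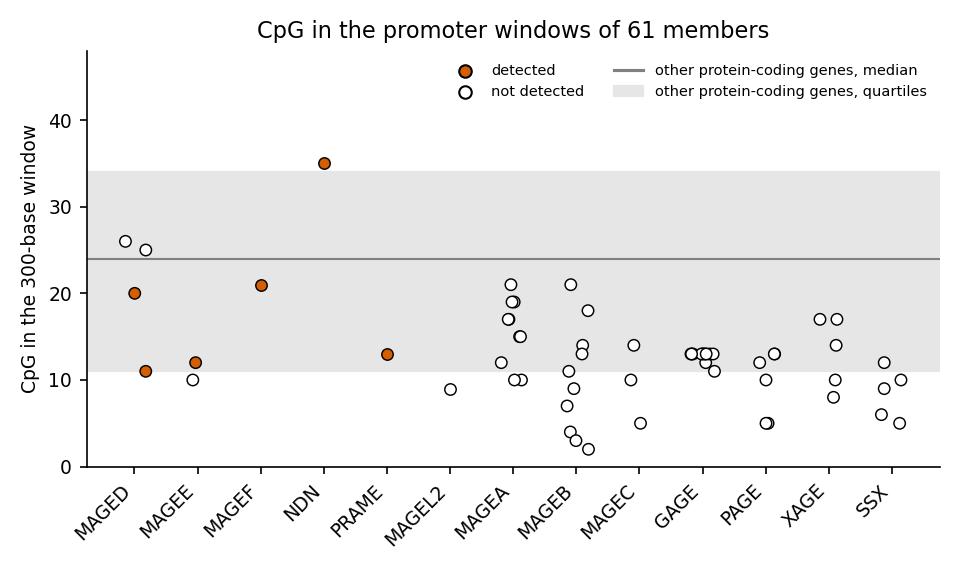
CpG dinucleotides in the 300-base RefSeq promoter window (y axis) of 61 members, by family (x axis). Each point is 1 gene, filled where it was detected, and the line and band give the median of 24 and the quartiles of other protein-coding genes. Filled points run from 11 to 35 and open points from 2 to 26.

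The core site of ETS factors, which are known activators of MAGEA promoters, was searched as CCGGAA on both strands of the same windows, with no other motif. It was present in the windows of MAGED2, MAGEF1 and PRAME, 3 of the 6 detected members with a window. It was also present in those of MAGEA3, MAGEA6 and MAGEB6, 3 of the 55 others with a window. Among 15782 other protein-coding genes 24.0% of windows held it. A match to these letters is not evidence of binding. MAGEA3 and MAGEA6 had a window that was the same in all 300 bases, as had MAGEA9 and MAGEA9B, MAGEA2 and MAGEA2B, and XAGE1A and XAGE1B.

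Replicate 1 stood apart from the other libraries in the table as a whole. The libraries held 29199806, 26264283 and 33458691 reads in replicates 1, 2 and 3. Among the 11266 detected genes 13.3% were more than 2-fold lower in replicate 1 than in the mean of replicates 2 and 3, and 0.186% were more than 2-fold higher. The difference followed transcript GC content, with a median log2 ratio of -1.41 in the lowest of 20 GC bins and 0.41 in the highest. The labelled cell type was checked on markers: all 9 renal carcinoma markers were detected, PAX2 at 7.77 ± 0.371 and CA9 at 50.5 ± 13.5 RPKM among them. PAX8 was the lowest at 1.46 ± 0.0731 RPKM, with 95.7% of its exons inside the span of other genes. CDH6 stood at 2.30 ± 0.753 RPKM, and EPCAM had 272, 544 and 814 reads. Of 12 germ cell markers 11 had no reads, and their summed level ran from 0 to 0.0385 RPKM over the libraries. Among the 11, SYCP3, PRM1, PRM2 and TNP1 have 100% of their exons inside the span of other genes, so their zeros show little. Of 4 leukocyte and 4 melanocyte markers none was detected, with 3 of each at 0, and of 5 trophoblast markers 1 was, PSG1 with 94, 113 and 147 reads. The melanocyte marker MLANA and the trophoblast marker ERVW-1, both at 0, also lie wholly inside other spans. Over all protein-coding genes 51.4% were detected and 28.7% had no reads.

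MAGED2 was the highest of the families. It encodes an adaptor that, in the kidney, promotes the expression and surface delivery of the sodium chloride cotransporters of the distal nephron, and its loss causes a transient antenatal Bartter syndrome. The gene (ENSG00000102316.17, GRCh38, chromosome X, 54807599 to 54816012, plus strand) had 5708, 4569 and 5966 reads in replicates 1, 2 and 3, or 71.5, 57.2 and 58.3 RPKM. Its mean of 62.3 ± 7.95 RPKM (SD, n = 3) lay above 93.6% of detected protein-coding genes. It held 41.4% ± 0.335 of all reads of the 73 members. The cotransporter genes it acts on were not detected: SLC12A1 (NKCC2) had 0, 2 and 0 reads and SLC12A3 (NCC) had 4, 6 and 16. GNAS, the G protein subunit with which MAGED2 works, stood at 69.4 ± 7.53 RPKM.

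MAGED1, also called NRAGE, was the other MAGED gene with a clear level. It binds the neurotrophin receptor p75 and UNC5 receptors and takes part in programmed cell death. It lies on chromosome X (51803007 to 51902357, plus strand) and had 3609, 3034 and 3637 reads, or 22.1, 18.6 and 17.4 RPKM. Its mean was 19.3 ± 2.45 RPKM. MAGED2 exceeded it 3.21-fold, and the log2 ratio of 1.69, 1.62 and 1.74 in the libraries hardly varied (mean 1.68 ± 0.06). That ratio rests in part on length: over the principal transcript of each gene MAGED1 stood at 41.5 ± 5.26 RPKM and MAGED2 at 83.7 ± 10.7. Of its receptors, UNC5A stood at 7.62 ± 0.84 RPKM, and NGFR, the p75 gene, was listed at 0 in every library, with 96.6% of its exons inside the span of other genes.

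MAGED4 and MAGED4B, near-identical copies on chromosome X, had 11, 5 and 3 and 4, 1 and 0 reads. Only 0.991% of the 50-base words in MAGED4 transcripts, and 3.71% of those in MAGED4B, occur in no other gene of GENCODE 29. Reads from this pair could therefore not be assigned to one copy, and their level was not measured well by these counts.

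MAGEF1, an intronless gene on chromosome 3 (184710367 to 184712002, minus strand), was next after MAGED2, though below MAGED1 over principal transcripts. Its protein directs the ligase NSMCE1 to MMS19, a factor that delivers iron-sulfur clusters to DNA repair enzymes. It had 1367, 1082 and 1557 reads, or 30.8, 24.3 and 27.4 RPKM, and a mean of 27.5 ± 3.21 RPKM. The genes named for this route were all detected, as were 51.4% of all protein-coding genes. NSMCE1 stood at 8.53 ± 1.19, MMS19 at 16.3 ± 2.35, CIAO1 at 28.9 ± 4.63 and CIAO2B at 90.8 ± 12.01 RPKM.

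NDN encodes necdin, a growth suppressor that binds E2F1 and is expressed from the paternal allele in the Prader-Willi region. It is intronless and lies on chromosome 15 (23685400 to 23687330, minus strand). It had 1628, 1202 and 1418 reads, or 31.0, 22.9 and 21.1 RPKM, with replicate 1 the highest. The mean was 25.0 ± 5.29 RPKM. E2F1 stood at 59.9 ± 17.4 RPKM, and EID1, another partner, was listed at 0 with its exons wholly inside another gene's span.

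MAGEL2, the imprinted neighbour of NDN, had no reads in any library. Its protein works with TRIM27 and USP7 in the recycling of endosomal cargo. The gene has no exon inside another gene's span and shares no 50-base word with any other transcript. MKRN3 and NPAP1, further paternally expressed genes of the region, were also listed at 0, with 13.2% and 0% of their exons inside other spans. SNRPN was listed at 0 with 63.0% inside, and SNHG14, the long noncoding RNA of the region, had 255, 348 and 422 reads. SNURF was listed at 0 with all of its exons inside other spans. NDN thus had reads where MAGEL2, MKRN3 and NPAP1, whose exons lie mostly or wholly outside other genes, had none. In the list of 7 imprinted 15q11-q13 neighbours 3 were detected, or 42.9%, near the 51.4% of protein-coding genes. Another 4, or 57.1%, were listed at 0, against 28.7% of protein-coding genes. The 3 were ATP10A at 13.4 ± 1.81, UBE3A at 0.496 ± 0.0907 with 92.3% of its exons inside other spans, and SNHG14 at 0.264 ± 0.0418 RPKM.

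MAGEH1, intronless and on chromosome X (55452105 to 55453566, plus strand), had 326, 308 and 450 reads, or 8.21, 7.76 and 8.85 RPKM. With a mean of 8.27 ± 0.55 RPKM it varied the least of the detected members relative to its mean. This ranking did not hold with correction for GC content, where MAGED2 stood at 61.9 ± 1.54 and MAGEH1 at 8.27 ± 0.58 RPKM. MAGED2 and MAGEH1 lie on either side of a run of PAGE genes on the short arm of X. PAGE2B, PAGE2, PAGE5 and PAGE3 lie between these 2 genes and had no reads in any library.

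MAGEE1, which binds the dystrobrevins of the dystrophin complex, was the lowest detected member and the one that varied most. The intronless gene on chromosome X (76427724 to 76431353, plus strand) had 399, 212 and 279 reads, or 4.05, 2.15 and 2.21 RPKM. Its mean was 2.80 ± 1.08 RPKM, and without replicate 1 it was 2.18. DTNA and DTNB, the dystrobrevin genes, stood at 1.13 ± 0.149 and 1.08 ± 0.0521 RPKM. MAGEE2, its paralogue, had no reads, although it shares no 50-base word with another transcript and no exon with another gene's span.

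PRAME was the only detected gene outside the MAGE family. It is a leucine-rich repeat protein that serves as substrate receptor of a CUL2 ubiquitin ligase and represses retinoic acid receptor signalling together with EZH2. The gene (chromosome 22, 22547701 to 22559361, minus strand) had 837, 638 and 973 reads, or 8.17, 6.22 and 7.41 RPKM. Its mean was 7.27 ± 0.98 RPKM, above 54.7% of detected protein-coding genes. Of 10 genes listed for its ligase and for retinoic acid receptor signalling 9 were detected, or 90%, against 51.4% of protein-coding genes. ELOB was the highest at 44.4 ± 8.62 RPKM, followed by LRRC41 at 17.4 ± 4.34, RBX1 at 17.4 ± 0.747 and EZH2 at 17.3 ± 2.99 RPKM. CUL2 stood at 11.6 ± 4.49 RPKM. RXRA, the lowest of the detected genes in this list, stood at 3.40 ± 0.548 RPKM, and RARB had 2, 2 and 0 reads.

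**Figure D2:**
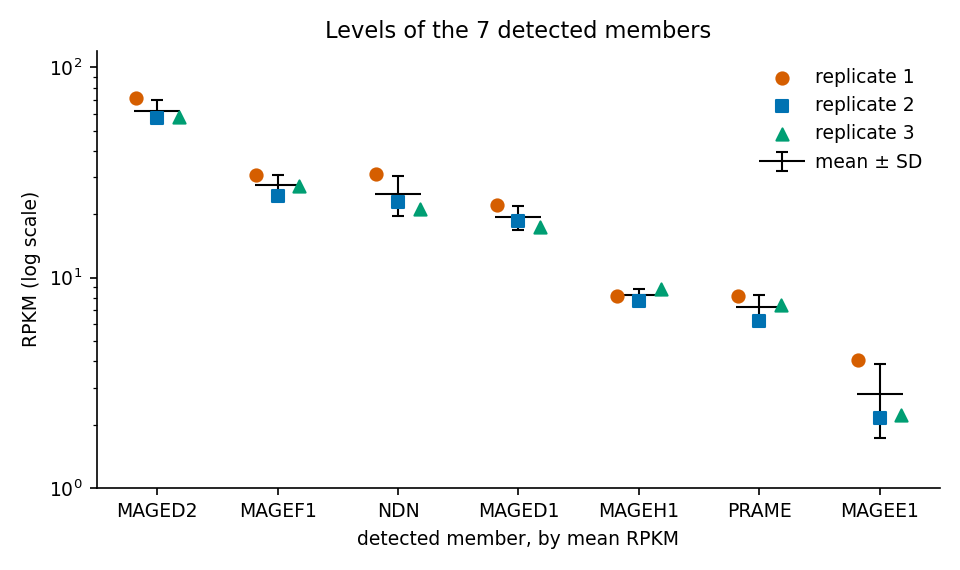
Level in RPKM (y axis, log scale) of the 7 detected members, ordered by mean (x axis). Coloured points are the 3 libraries and black marks the mean ± SD, and the means run from 62.3 RPKM for MAGED2 to 2.80 RPKM for MAGEE1.

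The order of levels was MAGED2, MAGEF1, NDN, MAGED1, MAGEH1, PRAME and MAGEE1. Neighbours in it were compared by their log2 ratio in each library, called past the replicate spread where the sign was the same in every library and the mean exceeded 2 SD. MAGED2 exceeded MAGEF1 2.26-fold, and MAGED1 exceeded MAGEH1 by 1.21 ± 0.23 on the log2 scale. PRAME exceeded MAGEE1 by 1.39 ± 0.36. MAGEF1 and NDN did not differ beyond the spread (0.15 ± 0.20), nor did MAGEH1 and PRAME (0.19 ± 0.16). NDN exceeded MAGED1 by 0.36 ± 0.12, but over principal transcripts MAGED1 was the higher and the ratio was -0.74. With that length the MAGEH1/PRAME ratio was -0.26, and MAGED1, at 41.5 RPKM, also lay above MAGEF1 at 27.5 RPKM. The positions of MAGED1 and PRAME among their neighbours thus depend on the length assumed, whereas MAGED2 stayed above MAGED1, MAGEF1 and PRAME under every alternative tried for those ratios.

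Replicate 1 differed little from the others for most detected members, which have GC contents of 48.02% to 54.96%. MAGED2 was higher there by 0.31 on the log2 scale than in the mean of the other libraries, against a median of 0.32 for genes of like GC content. MAGEF1, MAGED1 and PRAME stood at 0.25, 0.30 and 0.26, MAGEH1 at -0.02 and NDN at 0.50. None of the 7 passed 2-fold in either direction, against 13.3% of detected genes below and 0.186% above. Those shares cover genes of every GC content. The GC bins that hold the members had median log2 ratios of 0.04 to 0.32, against -1.41 in the lowest bin. MAGEE1 came closest, with 14.7 CPM in replicate 1 against a mean of 7.91 CPM in replicates 2 and 3, a log2 ratio of 0.89. Of the 11266 detected genes 40 had a higher ratio. It lay above 99.6% of genes in its GC bin, and correction for GC content left a log2 ratio of 0.60.

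**Figure D3:**
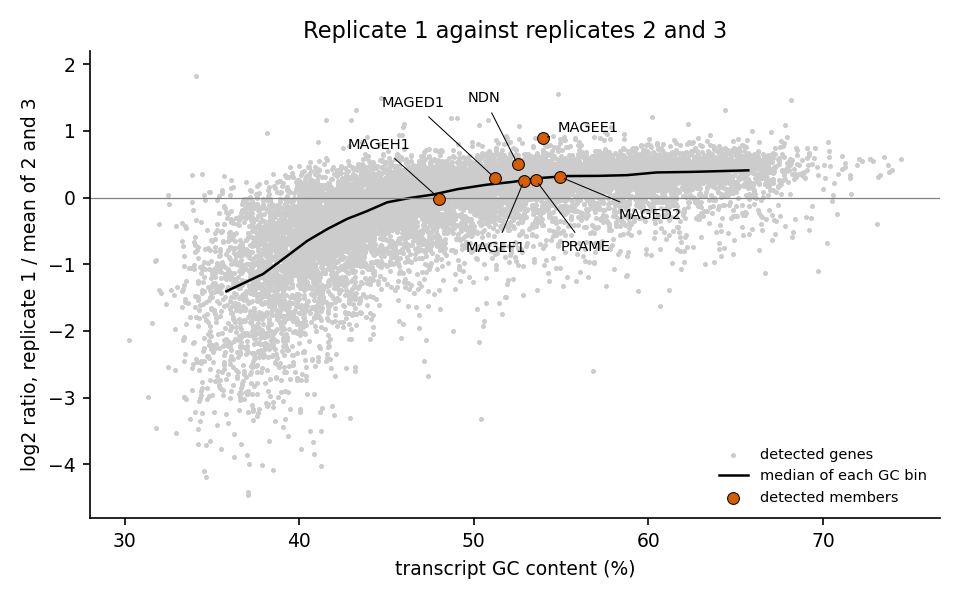
Log2 of CPM in replicate 1 over mean CPM in the other libraries (y axis) against transcript GC content in percent (x axis). Grey points are detected genes, the line joins the medians of 20 GC bins and large points are the 7 detected members, of which MAGEE1 lies highest at 0.89.

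The 29 type I genes comprise 15 MAGEA, 11 MAGEB and 3 MAGEC genes, a group that holds the antigens best known from tumour vaccines. Of the 15 MAGEA genes, MAGEA5, MAGEA7P and MAGEA13P are annotated as pseudogenes. All 15 MAGEA genes had no reads in any library, MAGEA1, MAGEA3 and MAGEA4 among them. MAGEB17 had 0, 2 and 2 reads and MAGEC1 had 0, 0 and 2, and the remaining 12 MAGEB and MAGEC genes had none. Counts came mostly in steps of 2 reads, so a count of 0 was taken to allow up to 3 pairs, or 6 reads. That is 0.221, 0.221 and 0.172 CPM in replicates 1, 2 and 3, a limit that covers counting error only. For a gene of 1949 bases, the median exon length of the well-resolved members without reads, this is 0.113, 0.113 and 0.0885 RPKM. The table also lists 0 for genes that cells need, such as SDHA, so a 0 is reported here as listed and not as proof that the RNA was absent.

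Sequence shared between copies limits what a count can show. The share of 50-base words found in no other gene was computed for the transcripts of every member, as was the share of exons inside the span of another gene. Of the 61 members without reads, 31 had at least 80% of such words to themselves and less than 80% of their exons inside other spans. Type I MAGE genes made up 18 of these 31, among them MAGEA1, MAGEA4, MAGEA8, MAGEA11, MAGEB2, MAGEC2 and the pseudogenes MAGEA7P and MAGEA13P. With words of 100 bases the numbers were 32 and 18.

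For another 20 members without reads, under 20% of the words were their own, and for 9 of them none were. These include SSX2 and SSX4, whose copies SSX2B and SSX4B were also listed at 0. MAGEA2, MAGEA2B, MAGEA9 and MAGEA9B belong here with 3.62%, 11.9%, 6.01% and 15.3%. So do CTAG1A and CTAG1B, the genes of the antigen NY-ESO-1, with 9.67% and 10.1%. Of the 13 GAGE genes 11 belong to it by their shared sequence. How the authors counted reads with several placements is not given in the sources used here, so the part of shared sequence in these zeros was not tested. MAGEA3 and MAGEA6 were intermediate at 43.5% and 46.1%, as was CTAG2 at 56.9%. MAGEA10 and MAGEA12 had 84.1% and 86.2% of words to themselves but 99.2% and 97.5% of their exons inside other genes, the readthrough MAGEA10-MAGEA5 and CSAG4, each listed at 0.

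**Figure D4:**
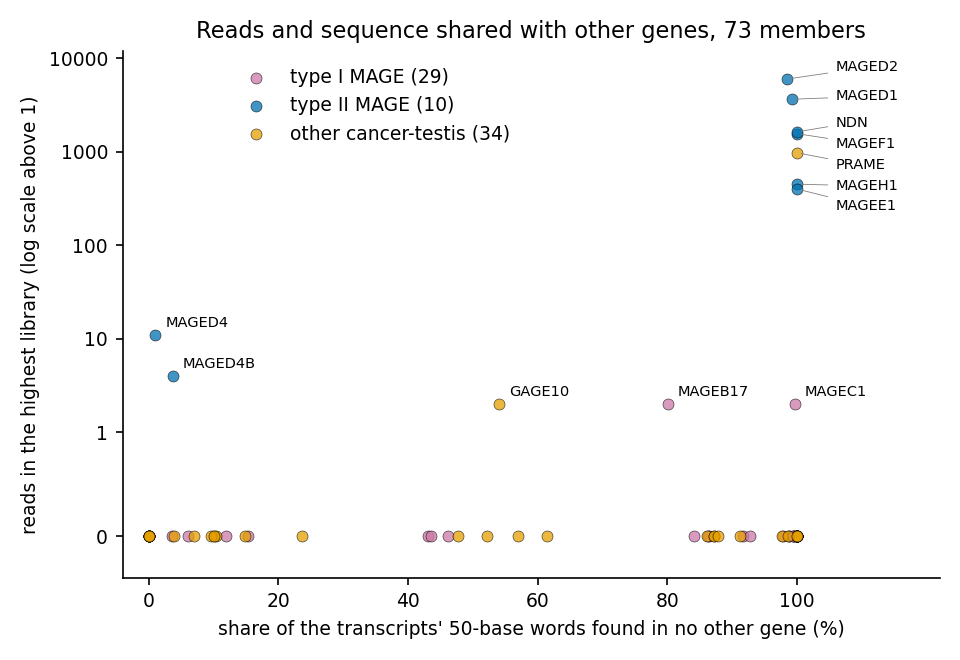
Reads in the highest of the 3 libraries (y axis, log scale above 1) against the share of 50-base transcript words found in no other gene (x axis, percent) for 73 members. The 7 detected genes lie near 100%, while 61 members lie at 0 reads over the whole range, many of them on top of each other.

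Among the other families, SSX genes encode nuclear repressors known from fusions with SS18 in synovial sarcoma. All 6 SSX genes had no reads, and 3 of them, SSX1, SSX3 and SSX5, were well resolved by sequence and position. All 6 PAGE and all 5 XAGE genes had none, with 4 and 3 well resolved. GAGE10 had 0, 2 and 0 reads, and the remaining 12 GAGE genes had none.

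Of 20 genes listed for the ubiquitin ligase routes of MAGE proteins 18 were detected, or 90%, against 51.4% of protein-coding genes. The list holds ligase genes together with others of these routes that are not ligases, such as CIAO1, CIAO2B, MMS19 and USP7. Its median was 8.25 RPKM. TRIM28, the partner of MAGEA3, MAGEA6 and MAGEC2, was the highest at 224 ± 57.1 RPKM, followed by CIAO2B, by CUL1 at 32.1 ± 4.88 and by CIAO1. TRIM27 and USP7, the partners of MAGEL2, stood at 19.1 ± 3.52 and 20.4 ± 0.633 RPKM. TRIM31 had 22, 20 and 19 reads, and LNX1 was listed at 0 with all of its exons inside other spans. In the SMC5/6 complex, where a further MAGE protein, NSMCE3, is a subunit, 5 of 7 genes were detected, or 71.4%, with 51.4% as the share of protein-coding genes. NSMCE1 was followed by NSMCE4A at 8.16 ± 0.120 and NSMCE2 at 6.30 ± 0.352 RPKM. SMC6 had 159, 1328 and 2136 reads and SMC5 had 81, 562 and 870, both far lower in replicate 1. NSMCE3 and EID3 were listed at 0 and lie wholly inside other spans. Of 14 listed binding partners of type II MAGE proteins 9 were detected, or 64.3%, near the 51.4% of protein-coding genes, with GNAS and E2F1 the highest, and EID1 and DLX5 were listed at 0.

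A list of 21 regulators of DNA methylation and silencing held writers and repressors together with the TET demethylases and CTCFL, which act the other way. Of the 21 genes 17 were detected, or 81.0%, against 51.4% of protein-coding genes, and the median was 4.09 RPKM. TET2 at 0.680 and TET3 at 3.34 RPKM were among the 17. UHRF1, which recruits the maintenance methyltransferase, led at 65.7 ± 9.06 RPKM, ahead of DNMT1, that enzyme, at 56.6 ± 8.37. HDAC1 stood at 39.97 ± 1.58 and EZH2 at 17.3 ± 2.99 RPKM. Of the de novo enzymes, DNMT3B stood at 8.02 ± 0.27 and DNMT3A at 1.05 ± 0.0769 RPKM. CTCFL is a testis paralogue of CTCF that can activate MAGEA promoters. It was listed at 0 in every library with no exon inside another span. DNMT3L was also listed at 0.

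Of 53 listed cancer-testis genes outside the named families 52 were in the table. Of these 8 were detected, or 15.4%, against 51.4% of protein-coding genes. A further 28, or 53.8%, had no reads, against 28.7% of protein-coding genes, and the median was 0 RPKM. Among the 28, SPANXA1, DDX53, OIP5, POTEE and NXF2B lie wholly inside other spans, and TPTE has 83.7% of its exons inside them. Sequence shared between copies was not computed for this list, so these zeros are reported as listed. CEP55 led at 28.6 ± 13.9 RPKM, followed by SPAG9 at 13.3 ± 3.58, ATAD2 at 10.9 ± 4.21 and PBK at 9.36 ± 5.31 RPKM. TTK, NUF2, KIF20B and KDM5B were the others detected. CEP55, PBK, TTK, NUF2 and KIF20B act in mitosis or cytokinesis of any dividing cell, and each had its lowest count in replicate 1, such as 101, 1070 and 1901 reads for TTK. The part of GC content in these differences was not tested. The meiotic genes SYCP1 and HORMAD1 had 0, 4 and 2 and 2, 6 and 8 reads and were not detected.

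**Figure D5:**
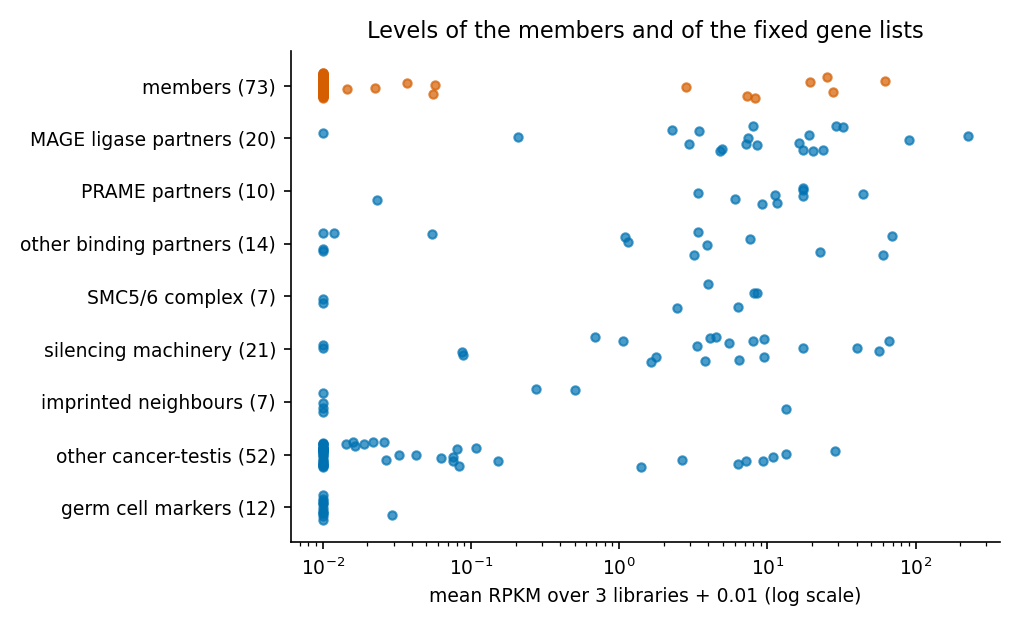
Mean RPKM over 3 libraries plus 0.01 (x axis, log scale) of the 73 members and of the genes in 8 other lists (rows, with the number of genes in the table). Each point is 1 gene, and genes without reads lie at the left edge: 61 of the 73 members, 28 of the 52 other cancer-testis genes and 11 of the 12 germ cell markers.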

How the data were processed

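RNA from 3 libraries of 1 group was analysed. The labels' protocols record poly(A) selection and a directional library kit. The tools named are FastQC, cutadapt 1.18, HISAT2 2.1.0 and, for counting, featureCounts 2.0.0, on hg38, per the submitters' processing notes. Not given in the sources used here are counting options, strand setting and annotation release. The authors deposited a signal per gene, which are gene counts over a per-library size factor: in units of 1 read, 100% of values came out whole within 0.01. Size factors were 0.946, 0.971 and 1.24, and whole reads were recovered from them. Counts of 2 outnumbered counts of 1 (1621 against 269 genes in replicate 1), so reads may count both mates of a pair, and limits for a count of 0 were set at 3 pairs.

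Of 60605 identifiers 58337 (96.3%) matched GENCODE 29 (GRCh38), as did all 73 members. TMM factors came from edgeR 4.0.16 under R 4.3.3, and scaled reads were divided by the exon union length. Log2 ratios used a pseudocount of 0.1 RPKM. A single group allows no comparison of conditions, so no p-value is given; nothing in the labels pairs the libraries. Every member with at least 10 reads in a library was named, and of each list the 4 highest and 2 lowest; ties at 0 were resolved by choice. Other genes were named after their values were seen, and 1 gene that the rule names is not reported here. Members and lists were chosen with earlier results of these data known. Promoter windows are RefSeq's (GRCh38.p14). TMM scaling, the 2-fold call of replicate 1 and the GC correction were tested on simulated data, and the other steps were not. The simulation for scaling and the 2-fold call held no GC trend. Its coefficient of variation between libraries was 0.07, as in replicates 2 and 3, whereas all 3 libraries gave 0.28. Alternatives covered scaling (DESeq2 1.42.0 among them), length, GC content, detection minimum, pseudocount and left-out replicates.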

Additional observations from a re-analysis of the deposited data

How the results depend on the processing

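The number of detected members was 7 under each other scaling, at 0.1 CPM and at 10 reads in every library, was 6 at 10 CPM, and was 7 without any 1 replicate. Counting any read in any library gave 12. The median level of the members, 0 RPKM, was 19.3 RPKM over detected members only. Without length scaling the log2 ratio was -0.089 for MAGEF1/NDN, -1.28 for NDN/MAGED1 and -1.17 for MAGEH1/PRAME, each reversed. With the length of the principal transcript, an alternative chosen after seeing the data, it was -0.74 for NDN/MAGED1 and -0.26 for MAGEH1/PRAME. MAGEH1/PRAME passed the replicate spread at 0.19 with GC correction, which narrows the SD, and without replicate 1, and ranged from 0.13 to 0.28 with 1 replicate left out. Over the 7 detected members replicate 1 was higher than the other libraries by a median of 0.30 (log2), and by 0.016 with GC correction. The other 6 ratios kept their direction and their call under every alternative. Levels moved by more than 1 SD only with the principal transcript length, for MAGED2 (83.7 RPKM), MAGED1 (41.5) and PRAME (9.94). No paired analysis was possible because there is only 1 group. Reads that fit several members, and zeros of genes that other annotated spans cover, limit what low counts show at this depth.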
